A study of Trichechus manatus latirostris with 11 samples.

Results

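Solute carriers (SLC) are the largest group of membrane transport proteins, and they move sugars, amino acids, ions, nucleotides and metabolites across the plasma membrane and the membranes of organelles. The SLC rows of a white blood cell RNA-Seq table from Florida manatees (Trichechus manatus latirostris) are described here. A row was taken when the TriManLat1.0 RefSeq symbol of its transcript record began with SLC and a digit, and SLC4A1, SLC11A1, SLC11A2, SLC25A37 and SLC40A1, genes of red cells and iron handling, were left out. This gave 195 rows with 188 symbols among the 15298 rows of the table, of which 10080 (65.9%) carried a RefSeq symbol. Transporters whose record had no matching symbol, the neutrophil and neuronal glucose transporter SLC2A3 and the amino acid transporter subunit SLC3A2 among them, were not analysed here.

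Buffy coats, the white cell layer of centrifuged blood, were taken from 4 adult manatees with red tide illness at the Lowry Park Zoo and from 7 adult controls. Of the red tide animals, 2 were sampled as they came in and 2 after a week of treatment. Of the controls, 4 were from Crystal River, 2 from the Indian River Lagoon and 1 from the same zoo while it recovered from pneumonia. Each group held 1 female, and the other animals were male. Red tide exposure came from the wild bloom and was not a controlled dose. The red tide animals were sampled at the zoo and on earlier dates than the controls. The authors describe freezing and archiving for the red tide buffy coats, and an RNA preservative for samples taken in the field. Differences of place, date and handling cannot be told apart from exposure. RNA was depleted of ribosomal and globin transcripts before sequencing. The table gives the authors' mean normalized count (reads divided by a size factor for the depth of each library) over 4 libraries and over 7 libraries, and its columns do not name the groups. By the sizes of the groups the 4-library mean would be that of the red tide animals, but the sources used here do not agree on the direction of the differences. The values below are therefore named by their number of libraries, and none of them can be read as higher or lower in red tide.

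No value of a single animal is listed. Every library adds an integer number of reads to a mean, divided by its own size factor, so low means could be split back into the reads of single libraries. The size factors found in this way were 1.56, 1.03, 0.62 and 0.372 in the 4-library group and 0.702 to 1.73 in the 7-library group, so the 2 shallowest libraries of the 11 belonged to the 4-library group. Reads of the 4 libraries were obtained for 149 SLC rows and reads of all 11 libraries for 75. Single libraries are listed from the largest size factor to the smallest and could not be linked to animals. For the stronger rows only the group means are known, without a spread, and a difference is then given as the fold between 2 means, with no test. The reference table names no chromosome or scaffold and holds no sequence, so no coordinates or sequences are given, and levels are not compared between genes because transcript lengths were not known.

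White blood cells depend on this family in well known ways. Activated lymphocytes and phagocytes take up glucose through the GLUT proteins (the SLC2 family) and export lactate through SLC16 proteins. Cystine enters through SLC7A11 for glutathione synthesis, ATP and ADP cross the inner mitochondrial membrane through SLC25A4, SLC25A5 and SLC25A6, and platelets store serotonin taken up by SLC6A4 and loaded into granules by SLC18A2.

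Among the 195 SLC rows, 55 had a 4-library mean at least 2-fold above the 7-library mean, which is 28.2% of them against 23.9% of all rows, and 22 (11.3%) had one at least 2-fold below, against 10.4% of all rows. The other 118 lay within 2-fold. The share of higher rows depended on the strength of the row. Among the 85 SLC rows with an overall mean under 10 normalized counts, 37 (43.5%) were higher and 11 (12.9%) lower, beside 47.3% and 12.1% of all such rows. Among the 110 with an overall mean of at least 10, 18 (16.4%) were higher and 11 (10%) lower, beside 12.3% and 9.59% of all such rows. The median log2 ratio (4-library mean over 7-library mean) was 0.03 in the stronger SLC rows and 0.81 in the weaker ones, against -0.01 and 0.87 over all rows of the same strength. No test over the family was made, and the rows below are described by substrate. The counts of each class are to be read beside the 23.9% higher and 10.4% lower of all rows, or beside the shares of rows of the same strength.

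**Figure D1:**
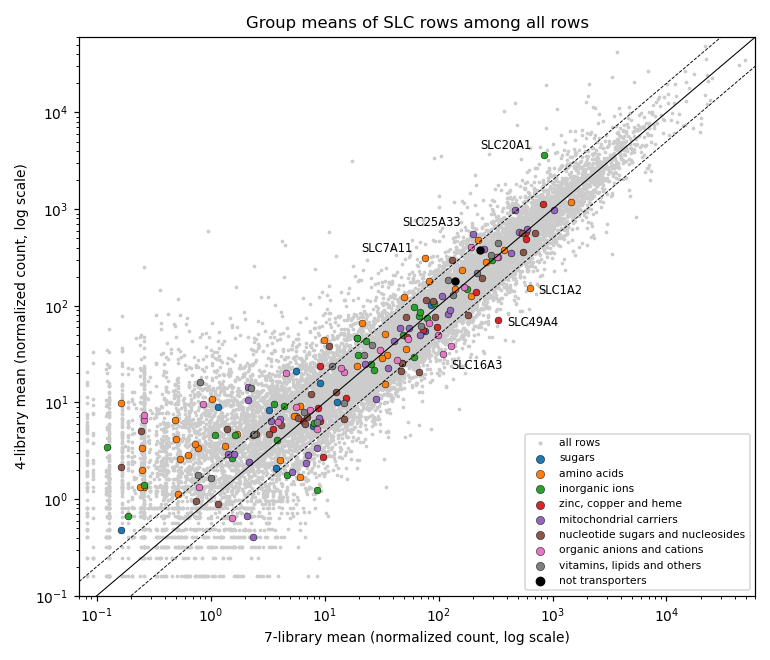
Each point is a row of the table, with its 7-library mean on the x axis and its 4-library mean on the y axis, in normalized counts on log scales. SLC rows are coloured by substrate class, all 15298 rows are grey, the solid line marks equal means and the dashed lines a 2-fold difference. SLC20A1, SLC7A11 and SLC25A33 lie above the upper dashed line, and SLC1A2, SLC49A4 and SLC16A3 lie below the lower one.

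The counts of blood cell markers bear on each difference below, since fewer cells of a type and less RNA per cell cannot be told apart in bulk RNA. Of 8 general leukocyte genes, 6 had a row and 0 of them differed by 2-fold, with CD53 at 2180 and 2108 and ITGB2 at 3572 and 3481 normalized counts over 4 and 7 libraries. Of 14 neutrophil genes, 7 had a row, and 5 of these were at least 2-fold lower in the 4-library mean, beside 10.4% of all rows. FPR1, at 698 and 442, and MPO, at 4.44 and 2.34, had the higher mean over the 4 libraries. The means of all 7 neutrophil genes summed to 1445 over 4 libraries and 4558 over 7. Of 9 platelet genes, 6 had a row, and 5 of these were at least 2-fold higher, beside 23.9% of all rows. The means of all 6 platelet genes summed to 15280 and 4429. Monocyte genes summed to 2488 and 2820, T cell genes to 508 and 795, B cell genes to 538 and 646, and erythroid genes to 186 and 487. Of genes of other tissues, epithelial genes summed to 25.2 and 30.9, liver genes to 100.2 and 218, neuronal genes to 195 and 128, and the kidney tubule gene CUBN had 79.4 and 9.59. No marker with a row was at 0 in either mean, but this was fixed beforehand, as every listed row had a mean above 0 in both groups. The part of these cell types in the SLC differences was not tested.

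Among the sugar transporters, none of the 11 rows was 2-fold lower in the 4-library mean and 5 (45.5%) were 2-fold higher, against 10.4% and 23.9% of all rows, with a median log2 ratio of 0.79 against 0.14. In a class of 11 rows the absence of lower ones is near the share in the table. SLC2A1 (XM_004371867.1), the GLUT1 transporter that supplies basal glucose to most cells, had 18, 17.5, 74.1 and 75.3 normalized counts in the 4 libraries (46.2 ± 32.9, SD, n = 4) and a mean of 19.2 over the 7. Its libraries fell into a pair just below the 7-library mean and a pair well above it, the latter being those with the smallest size factors. The log2 ratio of 1.27 dropped under 2-fold when either library of the upper pair was left out. It was 0.94 without the 0.62 library and 0.93 without the 0.372 library. Without the 1.56 library it was 1.53, and without the 1.03 library 1.54. SLC2A12, a further facilitative glucose transporter, had 1.92, 6.81, 29 and 45.7 normalized counts in the 4 libraries (20.9 ± 20.3, SD, n = 4). In the 7 libraries it ranged from 0 to 11.7 with a median of 5.43. The groups overlapped, and leaving out the 0.372 library moved its log2 ratio from 1.88 to 1.15.

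SLC2A6, a lysosomal glucose transporter of phagocytes, had 14.1, 12.7, 11.3 and 2.69 normalized counts in the 4 libraries and a mean of 12.8 over the 7. The myo-inositol transporter SLC2A13 had means of 103 and 85, a log2 ratio of 0.28, and SLC45A4 had 55.3 ± 22.6 (SD, n = 4) and 75.3. SLC37A4, which carries glucose 6-phosphate into the endoplasmic reticulum, rested on 3 reads in 1 library of the 4 and 2 reads in 1 library of the 7, so no fold is given.

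Amino acid transporters were the class with the largest share of higher rows, 21 of 39 (53.8%), with 3 lower. Of its weak rows 15 of 20 (75%) were higher, beside 47.3% of all weak rows. Among these 15, SLC38A11, SLC15A2, SLC6A18, SLC6A3, SLC6A8 and SLC6A14 rested on 3 or fewer reads over the 7 libraries. In SLC36A1, SLC15A2, SLC6A18 and SLC6A3 all reads of the 4 libraries came from 1 library. Of the 19 rows of the class with an overall mean of at least 10, 6 (31.6%) were higher and 2 lower, beside 12.3% and 9.59% of all such rows. The median log2 ratio of these 19 was 0.12 in place of 1.13 over the class. The class was formed by gene family and holds SLC6A4, SLC6A3, SLC6A8 and SLC15A2, carriers of serotonin, dopamine, creatine and peptides, all 4 of them higher. Without these, 17 of 35 rows (48.6%) were higher and 3 lower, with a median log2 ratio of 0.61, and 5 of the 18 stronger rows (27.8%) were higher. SLC7A11 (XM_004385491.1), the cystine and glutamate exchanger, had means of 313 over 4 libraries and 75.9 over 7, which is 4.13-fold. Single libraries are not known at this level. SLC16A10, an aromatic amino acid transporter, had 22.5, 32.1, 25.8 and 96.8 normalized counts in the 4 libraries, each above the 7-library mean of 9.86. Leaving out the 0.372 library took its log2 ratio from 2.17 to 1.44.

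SLC7A1, the main arginine and lysine importer, had means of 182 and 82.3, and SLC1A4, which exchanges alanine, serine and cysteine, had 122 and 50.2. Both were picked out after their values had been seen, and other carriers of such amino acids lay lower in the 4-library mean, among them SLC7A2 at a log2 ratio of -0.68 and SLC36A2 at -0.21.

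The glutamate transporter SLC1A2 (XM_004369797.1), best known from astrocytes, lay at the other end of the class with means of 152 over 4 libraries and 628 over 7, a log2 ratio of -2.05. SLC7A6, which exchanges cationic for neutral amino acids, had 8.98, 12.7, 24.2 and 16.1 normalized counts in the 4 libraries, all below the 7-library mean of 34.2. Its log2 ratio was -1.14, and it ranged from -1.44 to -0.95 when each of the 4 was left out, with -0.95 for the 1.56 library. The gene SLC7A6OS, named for lying opposite SLC7A6, had means of 181 and 138. Whether reads were counted by strand is not given in the sources used here, so where the transcripts overlap their reads could be shared.

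Several well known neutral amino acid carriers lay within 2-fold. SLC38A1, a glutamine transporter, had means of 1189 and 1449 over 4 and 7 libraries, and the 2 records of SLC38A2, a related carrier induced by amino acid shortage, had 284 and 263, and 51.5 and 34. Reads shared by the records of 1 gene were assigned by the authors' mapping, and their division is uncertain. SLC7A5, the leucine transporter of activated T cells, had 3.21, 7.79, 9.67 and 16.1 normalized counts in the 4 libraries and 0.853 to 10.9 in the 7, so the groups overlapped. SLC1A5, a glutamine transporter, had 25.7, 17.5, 35.5 and 16.1 in the 4 libraries around a 7-library mean of 19.3. SLC7A7, an amino acid exchanger of macrophages and epithelia, had means of 125 and 194.

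**Figure D2:**
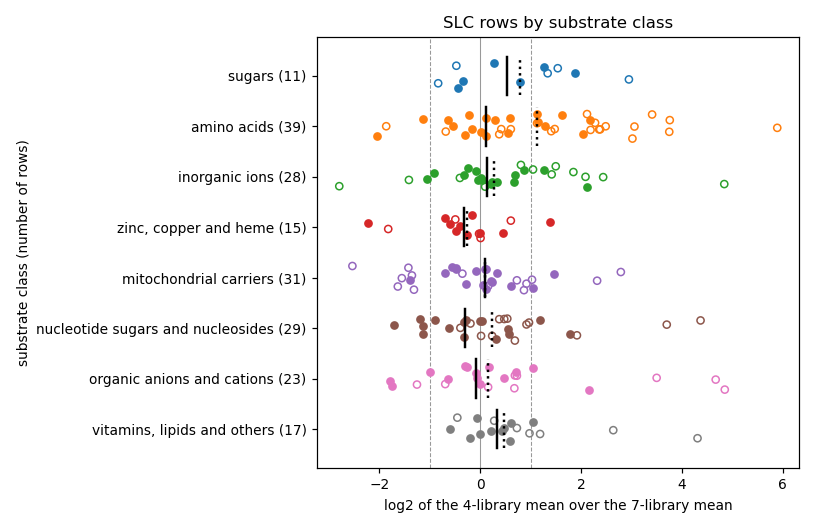
Each point is an SLC row, placed by the log2 of its 4-library mean over its 7-library mean on the x axis and by substrate class on the y axis, with the number of rows in brackets. Filled points have an overall mean of at least 10 normalized counts and open points less, solid bars mark the median of the filled points and dotted bars that of all points, and dashed lines mark 2-fold. Open points spread far to the right in the amino acid class, whose median is 1.13 over all rows and 0.12 over the stronger ones.

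Of the 28 inorganic ion transporters, 9 were 2-fold higher, 3 were lower and the median log2 ratio was 0.28. The phosphate importer SLC20A1 (XM_004388861.1), also known as the receptor of gibbon ape leukaemia virus, had means of 3601 over 4 libraries and 835 over 7, or 4.31-fold. Its spread over libraries is not known. SLC26A6, an exchanger of chloride, oxalate and bicarbonate, had 35.9, 40.9, 35.5 and 75.3 normalized counts in the 4 libraries, all above the 7-library mean of 19.4. Its log2 ratio of 1.27 was 0.95, just under 2-fold, when the 0.372 library was left out. SLC12A2, which brings sodium, potassium and chloride into the cell, had 24.4, 26.3, 37.1 and 83.4, and a 7-library mean of 23.3, within 2-fold. SLC26A11, a sulfate and chloride carrier, had 15.4, 20.4, 24.2 and 26.9 against 27.

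Zinc, copper and heme transporters gave the lowest class median, -0.25 over 15 rows, with 1 row 2-fold higher and 2 lower. SLC49A4 (XM_004373625.1), a lysosomal carrier of the heme transporter family also known as DIRC2, had 78.3, 85.7, 59.6 and 61.9 normalized counts in the 4 libraries (71.4 ± 12.6, SD, n = 4) and a mean of 334 over the 7. The 4 libraries lay close together and far below that mean, and leaving each out in turn gave log2 ratios of -2.33 to -2.15. SLC39A14, a zinc and iron importer induced in inflammation, had 10.9, 12.7, 25.8 and 45.7 against a 7-library mean of 9.15. Leaving out the 0.372 library took its log2 ratio from 1.38 to 0.85. SLC39A6 had means of 1128 and 822. The copper importer SLC31A1 had 39.1, 38.9, 54.8 and 91.5 in the 4 libraries around a 7-library mean of 73.3, and the zinc transporter SLC39A9 had 39.1, 52.6, 56.4 and 94.2, all below 97.4.

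Mitochondrial carriers, the SLC25 family of the inner mitochondrial membrane, were centred on equal means with a median log2 ratio of 0.10 over 31 rows. In them 5 rows (16.1%) were 2-fold higher and 7 (22.6%) lower, against 23.9% and 10.4% of all rows. Of the 14 weak rows 3 (21.4%) were higher and 6 (42.9%) lower, beside 47.3% and 12.1% of all weak rows. Of the 17 stronger rows 2 (11.8%) were higher and 1 (5.88%) lower, beside 12.3% and 9.59%. The ATP and ADP carriers SLC25A5 and SLC25A6 had means of 383 and 249, and of 586 and 507, and SLC25A4, added here beside them, had 59.4 ± 25.5 (SD, n = 4) and 55.1. SLC25A46, a protein of mitochondrial dynamics in the outer membrane, had 975 and 1028. The citrate carrier SLC25A1 had 59, 56.5, 24.2 and 35 normalized counts in the 4 libraries around a 7-library mean of 40.8. The pyrimidine nucleotide carriers SLC25A33 (XM_004385138.1) and SLC25A36 were the 2 rows of the class with an overall mean of at least 10 that were 2-fold higher, with means of 553 and 199.7, and of 979 and 473. These are 2.77-fold and 2.07-fold.

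SLC25A44, a carrier of branched-chain amino acids, had 16.7, 8.76, 17.7 and 0 normalized counts in the 4 libraries, all below the 7-library mean of 28.3. The shallowest library had 0 reads, and the log2 ratio was -0.98 in place of -1.39 when it was left out. The acylcarnitine carrier SLC25A20 had 32.7, 21.4, 14.5 and 21.5, all below 36.3.

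Reads of all 11 libraries were obtained for the records of SLC25A3 and SLC25A15. SLC25A3 (XM_004381249.1), the mitochondrial phosphate carrier, had 18, 8.76, 12.9 and 18.8 normalized counts in the 4 libraries (14.6 ± 4.70, SD, n = 4). In the 7 libraries it had 0.853 to 3.47, with a median of 1.96. The lowest of the 4 values was above the highest of the 7. SLC25A15, the ornithine carrier, had 8.98, 7.79, 9.67 and 16.1 in the 4 libraries and 0 to 5.7 in the 7, with a median of 1.81. Again no library overlapped (exact permutation test, two-sided, p = 0.00606, as small as this design can give, adjusted p = 0.381 over the 3893 rows described below). Of the 4775 rows with reads of 11 libraries, 2.79% showed such a separation on the higher side, as did 2 of the 75 SLC rows. Reads of 11 libraries need a 7-library mean under 10 but allow a 4-library mean up to 100, which favours the higher side. For rows beyond an overall mean of 6, SLC25A3, SLC22A17 and SLC27A6 among them, no p-value is therefore given.

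Transporters of nucleotide sugars, which feed glycosylation in the Golgi, and of nucleosides made up 29 rows, with 5 higher by 2-fold and 4 lower. All 4 lower rows had an overall mean of at least 10 and were SLC35 proteins. SLC35A1 (XM_004388982.1), the Golgi carrier of CMP-sialic acid, had 12.8, 18.5, 37.1 and 13.5 normalized counts in the 4 libraries, below the 7-library mean of 66.7 in each. Its log2 ratio of -1.70 stayed between -2.16 and -1.54 when each of the 4 was left out. SLC35A5 had 100.1, 84.7, 99.9 and 35 (79.9 ± 30.8, SD, n = 4) against 183, and its log2 ratio of -1.19 was -0.94 when the 0.372 library was left out. The other two were SLC35C2 and SLC35E2B, both at a log2 ratio of -1.14. SLC35A3, the carrier of UDP-N-acetylglucosamine, had means of 563 and 703, within 2-fold.

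On the higher side of this class were SLC35B1 and SLC35D3. SLC35B1, which exchanges ATP into the endoplasmic reticulum, had means of 299 and 131. SLC35D3, needed for platelet dense granules, had 17.3, 15.6, 98.3 and 21.5 normalized counts in the 4 libraries, all above the 7-library mean of 11. The 0.62 library held most of it, and the log2 ratio was 0.72 in place of 1.79 when it was left out.

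The serotonin transport genes of platelets also had higher 4-library means. SLC18A2 (XM_004374880.1), the vesicular monoamine transporter, had means of 402 over 4 libraries and 194 over 7, and SLC6A4, the serotonin transporter of the plasma membrane, had 481 and 220. SLC6A4 was picked out after its values had been seen. The platelet genes ITGB3 and TUBB1 had means of 4725 and 1019, and of 6392 and 1422, and ITGA2B had 3996 and 1919. The part of platelets in these SLC differences was not tested.

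Organic anion and cation transporters comprised 23 rows, with 5 higher, 3 lower and a median log2 ratio of 0.16. SLC16A3 (XM_004374074.1), the lactate exporter MCT4 of glycolytic leukocytes, had 25, 21.4, 53.2 and 26.9 normalized counts in the 4 libraries (31.6 ± 14.6, SD, n = 4) and a mean of 109.7 over the 7. SLC22A5, the carnitine importer, had 25.7, 35, 54.8 and 37.7 (38.3 ± 12.2, SD, n = 4) against 129. In both genes each of the 4 libraries lay below the 7-library mean, and the log2 ratios of -1.79 and -1.75 stayed at or below -1.60 with any 1 of the 4 libraries left out. SLC16A6, a related carrier, had means of 317 and 331. SLC22A17, a lipocalin receptor, had 7.7, 12.7, 37.1 and 24.2 in the 4 libraries and 1.68 to 11.9 in the 7, with a median of 3.47. Its groups overlapped in 1 library of the 7. No p-value is given for SLC22A17, as for SLC25A3.

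**Figure D3:**
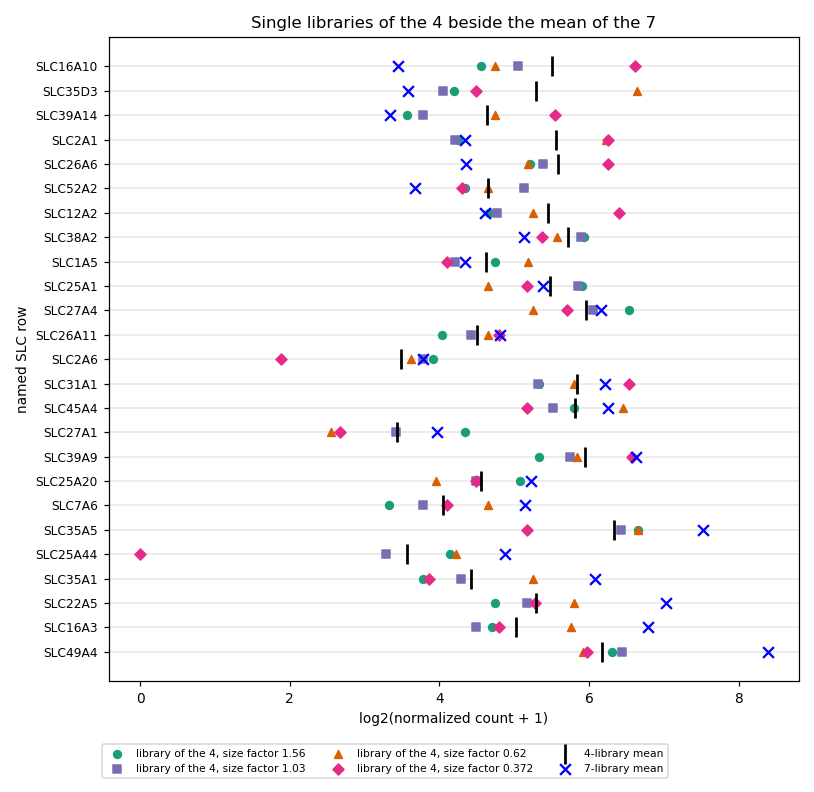
Each line on the y axis is a named SLC row reported here with an overall mean of at least 10, and the x axis is log2(normalized count + 1). Only rows with known reads of the 4 libraries but not of the 7 are drawn, so SLC2A12 and SLC22A17 are absent. Coloured symbols are the 4 single libraries, keyed by size factor, the black tick is their mean and the blue cross the mean of the 7 libraries. In SLC49A4, SLC16A3, SLC22A5 and SLC35A1 all 4 libraries lie to the left of the cross, and in SLC16A10, SLC35D3 and SLC39A14 all 4 lie to the right of it.

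Among 17 carriers of vitamins, lipids and other substrates, 4 were 2-fold higher and 0 lower, with a median log2 ratio of 0.47. The riboflavin transporter SLC52A2 had 19.2, 34.1, 24.2 and 18.8 normalized counts in the 4 libraries, all above the 7-library mean of 11.7, and its log2 ratio of 1.05 was 0.83 when the 1.03 library was left out. SLC33A1, the acetyl-CoA transporter of the endoplasmic reticulum, had means of 445 and 329, and SLC46A2 had 186 and 122. The fatty acid transporters SLC27A4 and SLC27A1 had means of 61.3 and 70.2, and of 9.8 and 14.7. The folate carrier SLC19A1 had 7.7, 10.7, 0 and 13.5 in the 4 libraries and 4.27 to 9.8 in the 7, so the groups overlapped. SLC44A2, a choline-like transporter, rested on 5 reads in the 4 libraries and 6 in the 7. Of its 5 reads 4 came from 1 library, and without that library its log2 ratio of 1.19 turned to -1.86. The adaptor SLC4A1AP, a protein that is no transporter, had means of 374 and 231.

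For 64 SLC rows with an overall mean of at least 10 the reads of the 4 libraries were known. All 4 libraries lay above the 7-library mean in 12 of them (18.8%, against 13.2% of the 5071 such rows in the table) and below it in 20 (31.2%, against 27.1%). These rows had a 4-library mean under 100, which favours the lower side. The coefficient of variation of the 4 libraries in these 64 rows had a median of 42.7% and ran from 8.13% to 105%. The highest of the 4 libraries was that of size factor 0.62 in 24 rows and that of 0.372 in 19. These are 37.5% and 29.7% of the SLC rows, beside 28.1% and 33% of all such rows, so the 2 shallower libraries held the top value in most rows of both sets.

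Weak SLC rows could be compared library by library. Up to an overall mean of 6, reads of 11 libraries were obtained for 56 of 61 SLC rows, and for 3893 of 3963 rows in all. The SLC rows missed were SLC9A8, SLC43A2, SLC7A2 and 1 record each of SLC25A39 and SLC41A3. All of these were lower in the 4-library mean, with log2 ratios of -2.79 to -0.68. The tested SLC rows therefore lean to the higher side. In the 56 rows, 6 had an exact two-sided permutation p under 0.05, which is 10.7% of them against 10.4% of all rows tested, and 0 had an adjusted p under 0.05, as had 0 of the 3893. The count was 2 when the 0.62 library was left out, and 2 when the 0.372 library was. All 6 were higher in the 4-library group, where 9.25% of all rows passed in this direction and 1.1% in the other. Complete separation on the higher side was seen in SLC25A15, 1 of the 56, beside 1.39% of all rows tested, and 0 of the 56 were separated on the lower side, beside 0.205%. The smallest p can be no lower than 0.00606, and the lowest adjusted p in the table was 0.381, so the test could call no single row.

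The other 5 rows were SLC35G6, SLC6A12, SLC35F1, SLC38A4 and SLC6A8, picked out here by this p-value. SLC38A4, an amino acid transporter known from liver, had 0, 5.84, 16.1 and 21.5 normalized counts in the 4 libraries and 0 to 2.85 in the 7 (exact permutation p = 0.0485). SLC6A12, the betaine and GABA transporter, had 0.641, 1.95, 3.22 and 10.8 in the 4 libraries and 0 to 1.42 in the 7 (exact permutation p = 0.0242). The creatine transporter SLC6A8 had 5, 0, 3 and 2 reads in the 4 libraries, and 2 of the 7 had 1 read each. These are few reads, as in the next row. SLC35G6 had 2, 5, 2 and 4 reads in the 4 libraries, and 1 of the 7 had 2 reads. SLC35F1 had 1.28, 4.87, 9.67 and 5.38 in the 4 libraries and 0 to 3.47 in the 7. The groups overlapped in each of these 5 rows, and the adjusted exact permutation p-values were 0.458 to 0.468. The lipid carrier SLC27A6, just above the limit on the mean, had 2.57, 5.84, 37.1 and 18.8 in the 4 libraries, and 5 of the 7 libraries had 0 reads. No p-value is given for SLC27A6.

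**Figure D4:**
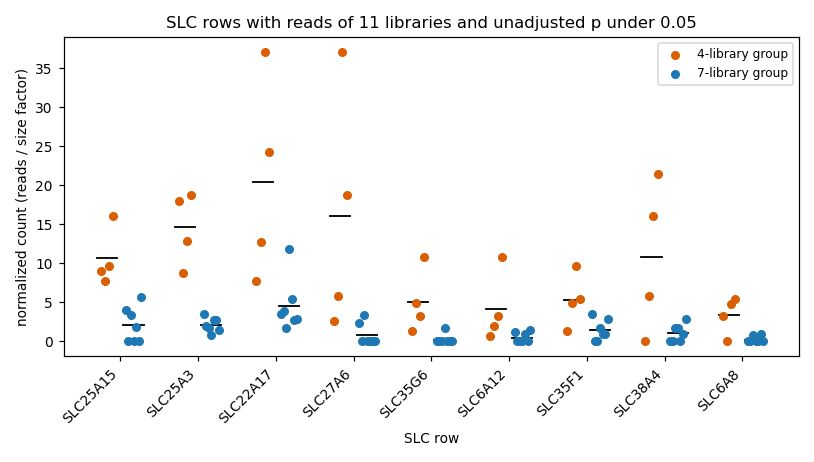
The y axis is the normalized count, reads divided by size factor. The x axis holds 9 SLC rows with reads of all 11 libraries, drawn because their unadjusted exact permutation p was under 0.05. SLC25A3, SLC22A17 and SLC27A6 lie beyond the overall mean of 6, in a set that favours the higher side. For these rows the p-value served only to pick them for the figure and is not a call. Orange points are the 4 libraries, blue points the 7 libraries and black lines the group means. SLC25A15 and SLC25A3 show no overlap of the groups, and the other 7 rows overlap.

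The weakest rows need reading with the depth in mind. A row was listed only with a mean above 0 in both groups, and a single read was worth 0.16 to 0.673 normalized counts in the 4-library mean but 0.0826 to 0.203 in the 7-library mean. In all, 14 SLC rows rested on 3 or fewer reads over the 7 libraries, each of them 2-fold higher in the 4-library mean, and 9 rested on 3 or fewer reads over the 4 libraries. In 12 rows all reads of the 4 libraries came from 1 library. No fold is given for these rows, except the log2 ratio of -2.79 above. It belongs to SLC9A8, which rested on 3 reads over the 4 libraries.

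Partners of solute carriers were examined from a separate list. Of 17 chaperones, ion pump subunits and regulators, 9 had a symbol in the table, with 10 rows and a median log2 ratio of 0.04. Of the 10 rows 2 were higher by 2-fold and 2 lower, beside 23.9% and 10.4% of all rows. BSG, the chaperone that brings SLC16A1 and SLC16A3 to the cell surface, had means of 8.68 over 4 libraries and 25.8 over 7, lower like SLC16A3 itself. The beta subunits of the sodium pump, whose gradient drives many of these carriers, had means of 1901 and 1584 for ATP1B1 and of 428 and 196 for ATP1B3. TXNIP, an arrestin that takes glucose transporters off the cell surface, had 15022 and 21844, and its relative ARRDC3 had 7969 and 12364. NEDD4L, a ubiquitin ligase of ion transporters, had 183 and 86.8, and the kinase OXSR1, which regulates SLC12 carriers, had 386 and 436. The kinase WNK1 has 2 records, with means of 1.61 and 6.96, and of 5.55 and 4.49.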

How the data were processed

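RNA-Seq of buffy coats from 4 red tide and 7 control manatees was deposited as 1 table, and groups were taken from the sample titles. The authors trimmed reads with Cutadapt, mapped them to TriManLat1.0 with Bowtie2, removed duplicates, counted uniquely mapped reads and compared groups with DESeq in DEB. The authors' deposited group means, a signal, are averages of counts divided by DESeq size factors. The columns of the authors' own comparison (fold change, log2 fold change, p-value and adjusted p-value) were not used, and 0 columns of single samples were set aside. The overall mean was the average of the 2 group means weighted by 4 and 7 in all 15298 rows, to within a relative 3.3e-09.

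Whole reads were worked back from 4-library means under 100 and 7-library means under 10, to within 6e-10 below a mean of 10 and 6e-09 above, and kept where a single combination gave the mean (99.9% and 88.1% of such rows). The step was tested on simulated data, where 99.7% of 1450 4-library means and 90.4% of 1387 7-library means could be solved uniquely, with the simulated reads returned in 100% of the solved means. Symbols came from the RefSeq table of TriManLat1.0, matched by transcript record without version.

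Calls are 2-fold differences of the group means, since single libraries are not listed. Rows with an overall mean up to 6 and reads of 11 libraries were tested by an exact two-sided permutation test over all 330 splits, with Benjamini-Hochberg adjustment over all rows tested. Analyses used Python 3.11.15, numpy 2.4.6 and pandas 2.3.3. Members, substrate classes and marker lists were chosen with earlier results of these data known. SLC4A1AP and SLC7A6OS were set apart as encoding no transporter after the rows had been seen. Named rows were those of 27 listed leukocyte transporters with a row, the highest overall mean of each class, and the 2 largest and 2 smallest ratios of each class at an overall mean of at least 10, 56 rows in all, some of which are not reported here. The limit of 6 was set after the table had been seen, from the overall mean alone. Rows under it without a single combination of reads were not tested, and this step was not blind to the group. Alternatives were a pseudocount of 1, a minimum mean of 10, centring, 1 row per symbol, other folds and leaving out libraries.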

Additional observations from a re-analysis of the deposited data

Results flagged for a closer look

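In 39 groups of 4 or 7 libraries of the named rows reported here, 7 had a library far from the others by Dixon's criterion. The criterion flags about 1 group in 20 for normally distributed values. These are read counts in rows partly picked by their ratios, so the 7 cannot be set against that rate. In the 4 libraries, SLC16A10 had 96.8 normalized counts in the library of size factor 0.372 and at most 32.1 in the others, and SLC26A6 had 75.3 in the same library and at most 40.9 in the others. The library of size factor 0.62 was far above the others for SLC35D3, at 98.3 against at most 21.5, and for SLC44A2, at 6.45 against at most 0.641. SLC37A4 had 1.92 in 1 library of the 4 and 1.16 in 1 library of the 7, and 0 in the rest. A group with reads in only 1 library is flagged whatever the value. SLC22A17 had 11.9 in 1 of the 7 libraries and at most 5.42 in the others.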

How the results depend on the processing

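No paired analysis was possible because the table gives group means, and the libraries worked back from them carry no replicate number. With a minimum overall mean of 10, the counts of SLC rows 2-fold apart were 18 higher and 11 lower, in place of 55 and 22, and the amino acid median log2 ratio was 0.12 in place of 1.13, since the weaker rows were left out. At 4-fold 29 were higher and 4 lower, and at 1.5-fold 79 were higher and 35 lower. The amino acid median was 0.61 without carriers of monoamines, creatine and peptides, an alternative added after seeing the data. A pseudocount of 1, centring on the median of all rows and 1 row per symbol kept these counts within 1.5 times, at 44 to 55 higher and 19 to 25 lower. Among the 149 rows with reads of the 4 libraries, leaving out 1 of the 4 at a time (chosen after seeing the data) gave 38 to 53 higher rows, against 46, and 20 to 31 lower rows, against 21. Leaving out 1 of the 11 libraries gave 2 to 7 weak rows with an exact permutation p under 0.05, against 6, with 2 without the library of size factor 0.62 and 2 without that of 0.372, but 7 and 5 without the other two of the 4. The count of 6 thus depends on the 2 shallowest libraries. On the log scale there were 5, and over all rows with reads of 11 libraries, a set that favours the higher side, 9. The log2 ratio of SLC44A2, 1.19, was -1.86 when the 0.62 library was left out, reached 1.61 with others of the 4 left out, and ran from 0.97 to 1.87 with each of the 7 left out. The depth limits the rows with few reads, and for rows with a 4-library mean of at least 100, 46 SLC rows, no spread is known.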
